A study of Mus musculus with 24 samples.

Results

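The transcripts described here are 10 genes of the circadian clock and its output: Dbp, Per1, Per2, Per3, Arntl, Clock, Nr1d1, Nr1d2, Ciart and Tef. They were taken by symbol from a table of 51912 genes, and each symbol matched 1 gene. All 10 passed the filter on low counts in both parts of the hippocampus. The table holds read counts from 24 RNA-seq libraries of the hippocampus, the brain region of spatial and contextual memory, in the offspring of male mice given nicotine or saline over a long period. The mice were of the C57BL/6J strain.

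The dorsal and the ventral hippocampus of 12 animals were sequenced apart, 3 animals in each of 4 groups, with libraries that share a title number and letter taken as 1 animal. The groups were sons of nicotine-treated sires (nicotine-sired males), sons of saline-treated sires (saline-sired males), daughters of nicotine-treated sires (nicotine-sired females) and daughters of saline-treated sires (saline-sired females). The offspring themselves carry no treatment label, and the labels used here give neither their age nor the hour of dissection. The number in the library titles differs between all 4 groups, so whatever it marks cannot be told apart from sire treatment and sex. The labels do not say whether the 3 animals of a group were littermates, so p-values measure the spread between these animals only. Total counts lay between 32049770 and 47486547 per library, with a median of 39578834. The markers of hippocampal neurons summed to between 3779 and 5224 CPM (counts per 1e6 counts of the library) in the dorsal libraries and between 2947 and 4407 CPM in the ventral ones, and no marker of that list was at 0. The markers of the ventral hippocampus summed to between 284 and 408 CPM in the ventral libraries and between 140 and 269.9 CPM in the dorsal ones. The 3 markers of the dorsal hippocampus overlapped, with sums between 150.1 and 378.7 CPM in the dorsal and between 99.88 and 218.6 CPM in the ventral libraries. The tissue also held other cells in uneven amounts. The 10 choroid plexus markers summed to between 63.5 and 5628 CPM in the dorsal and between 48.6 and 1967 CPM in the ventral libraries.

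In the mammalian clock, the proteins of Arntl (also called Bmal1) and Clock bind E-boxes and switch on the Per genes, Ciart (also called Chrono), Nr1d1 and Nr1d2 (REV-ERB alpha and beta), Dbp and Tef. PER proteins and CIART then repress ARNTL and CLOCK, while the NR1D proteins repress Arntl through a second element, the RORE. DBP and TEF are transcription factors that bind D-boxes, as in the Per genes, and their level follows the clock through the day. In most tissues Arntl therefore peaks at the time of day when Dbp and Nr1d1 are at their trough. The hippocampus has such a clock, which follows that of the suprachiasmatic nucleus.

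The letters of these elements were searched in the promoters of the members, and some windows that hold a match are shown. RefSeq (GRCm38.p6) gave 14 windows, from 250 bases before to 50 bases after a transcription start, for 9 of the 10 members. The letters searched on both strands were CACGTG (E-box), CACGTT (E-prime box), TTATGTAA or TTACGTAA (D-box), TAGGTCA or TGGGTCA (the core of the RORE) and TGACGTCA (CRE, the element of the cyclic AMP response). Among all 32851 windows of the table, the E-box was in 7.15%, the E-prime box in 4.68%, the D-box in 1.06%, the RORE core in 6.45% and the CRE in 1.79%. The sequences below run 5′ to 3′ on the gene's own strand and end at the base before the start, except that of Arntl, which is a 30-base stretch after it. Capitals mark the matched letters. They are E-boxes in Ciart (chr3:95882229-95882478, minus strand) and in an inner start of Per1 (chr11:69098699-69098948, plus strand), D-boxes in Per3 (chr4:151044666-151044915, minus strand), an E-prime box read on the other strand in Nr1d1 (chr11:98775378-98775627, minus strand) and a RORE core in Arntl (chr7:113207529-113207558, plus strand).
Ciart: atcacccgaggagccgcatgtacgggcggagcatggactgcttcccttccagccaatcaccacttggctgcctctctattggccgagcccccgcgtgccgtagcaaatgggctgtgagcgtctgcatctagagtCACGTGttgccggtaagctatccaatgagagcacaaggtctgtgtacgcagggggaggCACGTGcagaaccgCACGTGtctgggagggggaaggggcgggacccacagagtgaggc
Per1: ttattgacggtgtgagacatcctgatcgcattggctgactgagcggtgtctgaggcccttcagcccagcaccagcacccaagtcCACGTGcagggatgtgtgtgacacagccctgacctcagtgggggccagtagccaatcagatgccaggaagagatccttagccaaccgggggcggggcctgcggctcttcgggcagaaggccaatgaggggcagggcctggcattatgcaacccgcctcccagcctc
Per3: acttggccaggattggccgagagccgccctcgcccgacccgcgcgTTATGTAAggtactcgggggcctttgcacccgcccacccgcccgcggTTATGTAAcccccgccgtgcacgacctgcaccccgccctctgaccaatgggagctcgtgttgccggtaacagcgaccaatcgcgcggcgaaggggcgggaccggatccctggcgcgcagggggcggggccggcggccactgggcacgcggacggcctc
Nr1d1: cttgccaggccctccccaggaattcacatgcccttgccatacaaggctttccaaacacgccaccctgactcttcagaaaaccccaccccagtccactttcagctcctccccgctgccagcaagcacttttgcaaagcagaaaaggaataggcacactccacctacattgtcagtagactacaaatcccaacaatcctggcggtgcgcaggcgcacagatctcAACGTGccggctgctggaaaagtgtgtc
Arntl: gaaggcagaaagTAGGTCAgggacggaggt
Ciart held 3 E-boxes, starting 116, 58 and 44 bases before the start. Per1 held its E-box 166 bases before the start, and Tef, not shown, held one in each of its windows. Per3 held 2 D-boxes, 205 and 158 bases before the start. In Nr1d1 the E-prime box lay 28 bases before the start. In 1 of the 2 windows of Arntl the RORE core began at base 31, counted from the start base as 1. The windows of Dbp, Clock and Nr1d2 held none of these letters, nor did the other window of Per1 or of Arntl. A match is a description of the letters and not evidence of binding.

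Set side by side per kilobase of exon, the members covered a wide range of levels. Over the 24 libraries, Tef averaged 39.7 RPKM (CPM per kilobase of exon), Nr1d1 30.5, Dbp 18.1, Nr1d2 12.8 and Per1 12.3 RPKM. Per2 averaged 4.92, Clock 4.54, Arntl 3.36, Ciart 3.35 and Per3 1.92 RPKM. The smallest number of reads behind a value was 175, for Ciart. The order of the members by level says nothing of how far each moved between animals. Dbp had the widest span, 2.84-fold between the highest and the lowest library, followed by Ciart with 2.47-fold and Arntl with 1.84-fold. Nr1d2 spanned 1.32-fold and Nr1d1 1.46-fold.

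Dbp, the D-box activator that is among the most strongly cycling clock outputs, lay on the plus strand of chromosome 7 (45705088 to 45710203, GRCm38). In the dorsal hippocampus it had 59.3, 67.2 and 66.4 CPM in nicotine-sired males, against 29.7, 34.2 and 31.8 CPM in saline-sired males. It had 52.1, 43.5 and 39.0 CPM in nicotine-sired females, against 67.1, 63.7 and 76.5 CPM in saline-sired females. Nicotine-sired animals were thus the higher group in males and the lower group in females, with no overlap of libraries in either sex. The ventral libraries of these animals gave 49.4, 77.0 and 60.9 CPM in nicotine-sired males, against 34.1, 36.8 and 38.8 CPM in saline-sired males. Ventral libraries of nicotine-sired females had 50.4, 47.7 and 45.1 CPM, against 79.8, 64.3 and 84.3 CPM in saline-sired females. The 4 groups had the same order in both regions: saline-sired females (69.1 ± 6.65 CPM dorsal and 76.1 ± 10.5 CPM ventral; SD, n = 3), nicotine-sired males (64.3 ± 4.35 and 62.4 ± 13.9), nicotine-sired females (44.9 ± 6.66 and 47.7 ± 2.64) and saline-sired males (31.9 ± 2.24 and 36.6 ± 2.32). The top pair overlapped in both regions, and nicotine-sired males and nicotine-sired females overlapped in the ventral region. The highest group mean was 2.17 times the lowest in the dorsal and 2.08 times the lowest in the ventral region.

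**Figure D1:**
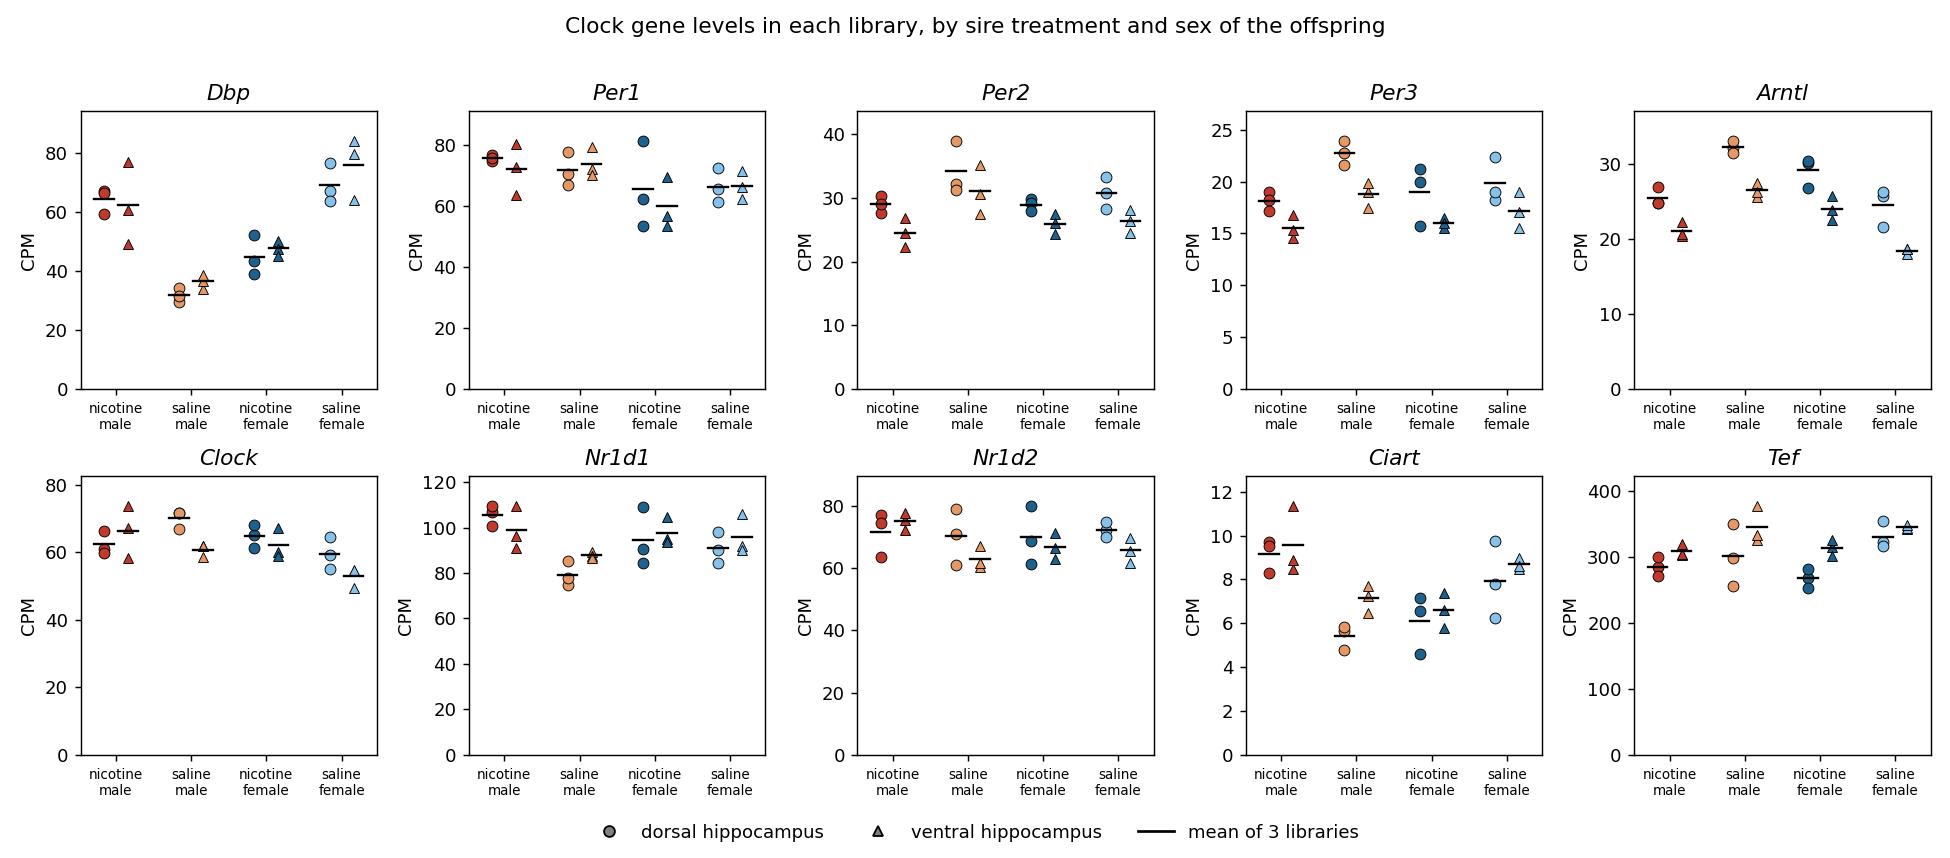
Level of each of the 10 clock genes in CPM (y axes, from 0) in every library, by sire treatment and sex (x axes, nicotine-sired left of saline-sired); circles are dorsal and triangles ventral libraries, and bars are means of 3 libraries. Dbp averaged 64.3 CPM in dorsal nicotine-sired males and 31.9 CPM in dorsal saline-sired males, and Arntl ran in the opposite order of groups.

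Arntl, the partner of CLOCK in the activating complex and the gene with a RORE core in 1 of its 2 windows, had the reverse order. In the dorsal hippocampus it had 27.0, 24.8 and 24.8 CPM in nicotine-sired males, against 32.2, 31.6 and 33.2 CPM in saline-sired males. It had 30.2, 26.9 and 30.5 CPM in nicotine-sired females, against 25.7, 26.3 and 21.7 CPM in saline-sired females. Ventral libraries had 22.3, 20.5 and 20.7 CPM in nicotine-sired males, against 27.6, 25.7 and 26.3 CPM in saline-sired males. Ventral libraries of nicotine-sired females had 25.8, 22.5 and 23.9 CPM, against 18.0, 18.7 and 18.8 CPM in saline-sired females. In all 4 of these pairs the nicotine-sired and the saline-sired libraries did not overlap, and each pair was turned round relative to Dbp. By group mean the order in both regions was saline-sired males (32.3 ± 0.812 CPM dorsal and 26.5 ± 0.951 CPM ventral; SD, n = 3), nicotine-sired females (29.2 ± 1.98 and 24.1 ± 1.66), nicotine-sired males (25.5 ± 1.28 and 21.2 ± 0.995) and saline-sired females (24.6 ± 2.48 and 18.5 ± 0.399). Neighbours that overlapped were the nicotine-sired females and males and the lowest pair in the dorsal region, and the highest pair in the ventral region.

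Clock, which encodes the other protein of the activating complex, had a narrower range, from 49.3 to 73.7 CPM. Its dorsal group means kept the order of Arntl, 62.3 ± 3.50 CPM in nicotine-sired males against 69.99 ± 2.84 in saline-sired males. Females had 64.9 ± 3.37 CPM when nicotine-sired against 59.5 ± 4.71 when saline-sired (SD, n = 3). Its ventral means did not, with 66.4 ± 7.73 CPM in nicotine-sired males against 60.7 ± 1.84 in saline-sired males, while females had 62.0 ± 4.42 CPM when nicotine-sired against 52.9 ± 3.06 when saline-sired.

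Ciart, the repressor whose window holds 3 E-boxes, resembled Dbp. In the dorsal hippocampus it had 8.31, 9.71 and 9.50 CPM in nicotine-sired males, against 4.76, 5.66 and 5.83 CPM in saline-sired males. It had 7.16, 6.55 and 4.59 CPM in nicotine-sired females, against 6.26, 7.78 and 9.75 CPM in saline-sired females. Ventral libraries had 8.46, 11.4 and 8.90 CPM in nicotine-sired males, against 6.45, 7.71 and 7.24 CPM in saline-sired males. Ventral libraries of nicotine-sired females had 7.37, 6.62 and 5.80 CPM, against 8.997, 8.47 and 8.63 CPM in saline-sired females. The nicotine-sired and saline-sired libraries overlapped in dorsal females and in none of the other 3 pairs. Nr1d1, the repressor of Arntl, averaged 105.7 ± 4.37 CPM in dorsal nicotine-sired males against 79.3 ± 5.38 in dorsal saline-sired males, without overlap, and 94.6 ± 12.8 CPM in dorsal nicotine-sired females against 90.9 ± 6.81 in dorsal saline-sired females, with overlap (SD, n = 3). Its ventral group means lay between 87.8 and 98.9 CPM. Nr1d2 had nearly equal dorsal means, between 70.1 and 72.3 CPM. In the ventral region it averaged 75.1 ± 2.68 CPM in nicotine-sired males against 63.1 ± 3.50 in saline-sired males, without overlap, and 66.9 ± 4.24 CPM in nicotine-sired females against 65.8 ± 3.95 in saline-sired females, with overlap.

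The 3 Per genes did not follow Dbp. Per2 was highest in saline-sired males, with a dorsal mean of 28.9 ± 1.32 CPM in nicotine-sired males against 34.1 ± 4.19 in saline-sired males, and a ventral mean of 24.5 ± 2.30 CPM against 31.0 ± 3.83 in the same groups (SD, n = 3). Per3, whose window holds the 2 D-boxes, had a dorsal mean of 18.1 ± 0.937 CPM in nicotine-sired males against 22.8 ± 1.17 in saline-sired males, and a ventral mean of 15.6 ± 1.10 CPM against 18.8 ± 1.25. Saline-sired males, the group with the lowest mean of Dbp, thus had the highest means of Per2 and Per3 in both regions. Per1, which also answers quickly to neuronal activity and glucocorticoids, had overlapping libraries between all neighbouring groups in both regions, with group means from 59.99 to 75.9 CPM. Tef, the D-box activator related to Dbp, averaged 285 ± 14.4 CPM in dorsal nicotine-sired males against 302 ± 46.7 in saline-sired males, and 268 ± 14.9 CPM in dorsal nicotine-sired females against 331 ± 20.3 in saline-sired females.

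Sire treatment was compared within males with edgeR's quasi-likelihood test, fitted over all genes of a region and adjusted by Benjamini-Hochberg, with a threshold of 0.05. In the dorsal hippocampus of males, Dbp was higher after nicotine, with a log2 fold change of 1.01 ± 0.11 (SE; adjusted p = 6.87e-04). It was the only called member of 10, while 1.78% of all 19130 genes tested were called. Nr1d1 (0.41 ± 0.10, adjusted p = 0.0504), Arntl (-0.34 ± 0.08, adjusted p = 0.0547) and Ciart (0.76 ± 0.19, adjusted p = 0.063) did not pass the edgeR test. DESeq2 called these 3 as well as Dbp, against 5.13% of the genes to which it gave an adjusted p. In the ventral hippocampus of males, Dbp rose by 0.77 ± 0.14 (adjusted p = 0.00795) and Arntl fell by 0.33 ± 0.07 (adjusted p = 0.0234), 2 members of 10, with 3.21% of all 19224 genes called by edgeR. Nr1d2 (0.25 ± 0.07, adjusted p = 0.0734) did not pass the edgeR test there. DESeq2 called 4 ventral members in males, Dbp, Arntl, Nr1d2 and Per2, against 3.92% of all genes. The call of Arntl was lost in 4 of 12 refits that left out 1 animal, those without nicotine-sired male B or C or saline-sired male A or C, with values between -0.36 and -0.30. The median log2 fold change of the 10 members was -0.03 in dorsal and 0.05 in ventral males, against 0.00 and 0.01 over all genes tested. In each region 5 of the 10 log2 fold changes were positive.

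In females, edgeR called 0 of the 10 members in either region, against 0.0314% of all genes tested in the dorsal and 0.0312% in the ventral hippocampus. At an unadjusted p under 0.05 there were 3 members in the dorsal and 4 in the ventral region, against 13.3% and 13.9% of all genes. DESeq2 called Dbp in the dorsal region and Dbp and Arntl in the ventral region, against 1.44% and 1.41% of the genes to which it gave an adjusted p. The edgeR values for nicotine-sired over saline-sired females were -0.61 ± 0.11 for dorsal Dbp (adjusted p = 0.132), -0.67 ± 0.14 for ventral Dbp (adjusted p = 0.108), 0.26 ± 0.08 for dorsal Arntl (adjusted p = 0.235) and 0.38 ± 0.07 for ventral Arntl (adjusted p = 0.093). Averaged over the sexes, 0 of 10 members were called by edgeR and by DESeq2 in both regions, with 0.0784% of all genes called by edgeR in the dorsal and 1.75% in the ventral region, and 1.09% and 3.07% called by DESeq2. At an unadjusted p under 0.05 there were 5 members in each region, against 10.8% of all genes in the dorsal and 15.7% in the ventral region. The mean over both sexes was 0.20 ± 0.08 for dorsal and 0.05 ± 0.10 for ventral Dbp, smaller than either sex alone.

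**Figure D2:**
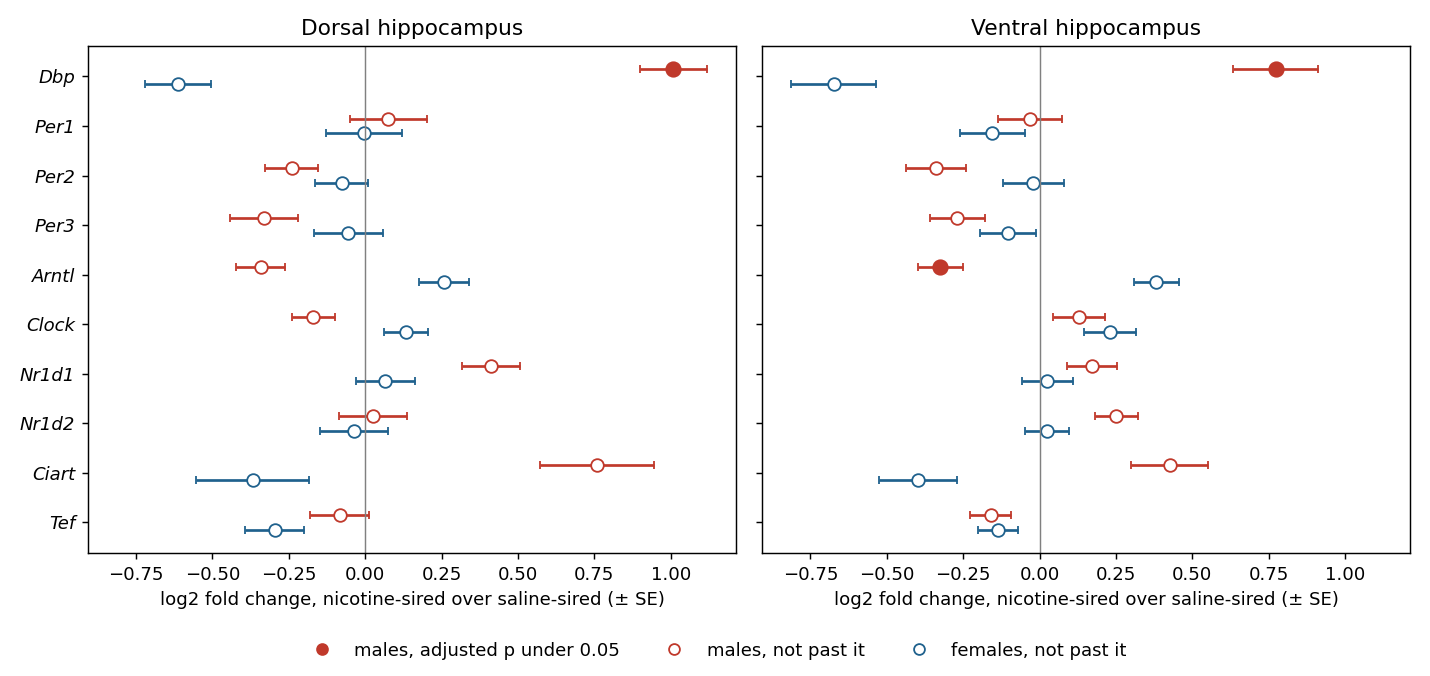
Log2 fold change of nicotine-sired over saline-sired offspring (x axes) for each clock gene (y axes) in males (red) and females (blue), with standard errors from edgeR; filled points passed an adjusted p of 0.05. Dorsal Dbp stood at 1.01 in males and -0.61 in females, and Arntl at -0.34 in males and 0.26 in females.

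The difference of the treatment effect between the sexes was itself tested. Taken as females minus males, it was -1.62 ± 0.15 for dorsal Dbp (edgeR adjusted p = 4.14e-04) and -1.45 ± 0.20 for ventral Dbp (adjusted p = 0.00339). For Arntl it was 0.60 ± 0.11 in the dorsal (adjusted p = 0.0237) and 0.71 ± 0.10 in the ventral region (adjusted p = 0.00415). For Ciart it was -1.12 ± 0.26 in the dorsal (adjusted p = 0.0467) and -0.82 ± 0.18 in the ventral region (adjusted p = 0.0441). These 3 members of 10 passed in each region, against 2.24% of all genes tested in the dorsal and 1.07% in the ventral region. The calls of Ciart were lost in 10 of 12 refits that left out 1 animal, in each region, with values between -1.28 and -0.95 in the dorsal and between -0.92 and -0.67 in the ventral region. They held without nicotine-sired female A and without saline-sired female A in the dorsal region, and without nicotine-sired female A and without nicotine-sired male A in the ventral region. The dorsal call of Arntl was lost in 7 of 12 refits, those without nicotine-sired male A, B or C, nicotine-sired female C, saline-sired female B, or saline-sired male A or B, with values between 0.52 and 0.64. The calls of Dbp and of ventral Arntl were kept in all 12.

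Set against each other, saline-sired females and saline-sired males also differed. Among saline-sired animals Dbp was 1.11 ± 0.11 higher on the log2 scale in females than in males in the dorsal (edgeR adjusted p = 2.59e-04) and 1.06 ± 0.14 higher in the ventral region (adjusted p = 0.00158). Arntl was lower in these females, by a log2 change of -0.40 ± 0.08 in the dorsal (adjusted p = 0.027) and -0.52 ± 0.07 in the ventral region (adjusted p = 0.00179). These were 2 of 10 members in each region, against 1.91% of all genes in the dorsal and 2.31% in the ventral region. The dorsal call of Arntl was lost in 6 of 12 refits that left out 1 animal, each without a different saline-sired animal, with values between -0.45 and -0.32. Among nicotine-sired animals, edgeR called 0 of 10 members between females and males in either region, against 0.068% of all genes in the dorsal and 0.0832% in the ventral region. An unadjusted p under 0.05 was reached there by 3 dorsal and 5 ventral members, against 9.64% and 8.48% of all genes. DESeq2 called Dbp in the dorsal and Ciart in the ventral region, against 0.574% and 0.795% of all genes. The comparisons within a region share libraries with each other, so they are not independent of each other.

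Several measures moved with these groups. Counts of noncoding genes opposite coding genes, as a percentage of the counts of those coding genes, lay between 0.383 and 0.491% in ventral nicotine-sired males, and between 0.206 and 0.322% in the other ventral libraries. With this percentage as a covariate, 0 of 10 members passed edgeR in ventral males and 0 of 10 in the ventral difference between the sexes. Of all 19224 genes tested, 1 was then called in each comparison, against 617 and 205 without the covariate. As the percentage of ventral nicotine-sired males did not overlap that of the others, it cannot be told apart from this group. The ventral Dbp estimate in males was 1.24 ± 0.37 with the covariate (adjusted p = 0.605), and that of Arntl -0.15 ± 0.22 (adjusted p = 0.982). In dorsal libraries the percentage ranged from 0.222 to 0.456% in nicotine-sired males, against 0.193 to 0.447% in saline-sired males, and the dorsal calls of Dbp held with it as a covariate. Those of Ciart in the dorsal difference between the sexes (-1.12 ± 0.28, adjusted p = 0.0632) and of Arntl between dorsal saline-sired females and males (-0.40 ± 0.09, adjusted p = 0.0636) were lost with it. With choroid plexus level as a covariate, Ciart was not called in the difference between the sexes in the dorsal (-1.09 ± 0.27, adjusted p = 0.0674) or the ventral region (-0.72 ± 0.21, adjusted p = 0.139). Blood markers were 5 genes of hemoglobin and heme synthesis. They summed to between 391 and 486 CPM in ventral nicotine-sired libraries against 282 to 377 CPM in ventral saline-sired libraries, without overlap. Over both sexes edgeR called 4 of the 5 higher there, against 1.75% of all genes. In the dorsal region they summed to between 375 and 632 CPM in nicotine-sired and between 220 and 431 CPM in saline-sired libraries. EdgeR called 0 of 5 dorsally over both sexes, against 0.0784% of all genes. The 10 choroid plexus markers had a median log2 fold change in females of 2.55 in the dorsal and 3.54 in the ventral region, and all 10 were positive in the difference between the sexes in both. Their sums overlapped, with between 111 and 5628 CPM in dorsal nicotine-sired females against 63.5 to 1114 CPM in dorsal saline-sired females, and between 101 and 1967 CPM in ventral nicotine-sired females against 64.4 to 177 CPM in ventral saline-sired females. EdgeR called 0 of these 10 in any comparison of sire treatment or sex. Ventral nicotine-sired males had 2 of 4 microglia, 1 of 4 astrocyte and 1 of 5 oligodendrocyte markers called higher, against 3.21% of all genes. Of 6 endothelium markers, 2 were called higher there and 1 lower, and of 6 hippocampal neuron markers 0 were called. Oligodendrocyte markers were higher in ventral saline-sired females than males (3 of 5, against 2.31%). In the ventral difference between the sexes 2 of 5 were lower, against 1.07%. The part of blood and of these cell types in the member values was not tested. A stretch of 539 bases, 18.0% of Dbp's exons, lie opposite exons of Sphk2, and the counting strand is not given in the sources used here. Sphk2, a sphingosine kinase gene, had a dorsal log2 fold change of -0.14 ± 0.07 in males (adjusted p = 0.319) and was called in none of the comparisons. Nr1d1 has 263 bases, 8.5% of its exons, opposite Thra, the thyroid hormone receptor alpha gene, whose count over all libraries was 866789 against 88392 for Nr1d1. Thra had a dorsal sex difference in the treatment effect of -0.56 ± 0.12 (adjusted p = 0.0343), and without the counting strand, reads of this stretch cannot be told apart. Because these are pieces of whole tissue, fewer cells of a type and less RNA per cell cannot be told apart.

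The phase relations of the clock were then read across libraries. Over the 12 libraries of a region, log2 CPM of Dbp and Arntl had a Pearson r of -0.915 (Spearman rho -0.951) in the dorsal and -0.921 (rho -0.881) in the ventral hippocampus. Dbp and Ciart had an r of 0.848 in the dorsal and 0.737 in the ventral region, and Dbp and Nr1d1 0.717 and 0.595. Dbp and Clock had -0.794 in the dorsal and -0.524 in the ventral region. Per2 with Dbp had -0.454 in the dorsal and -0.505 in the ventral region, and Per1 with Dbp 0.122 and 0.0298. These values describe how the 4 groups are placed, since the libraries fall into groups, and they carry no test. The log2 ratio of Dbp to Arntl, a within-library contrast of opposite phases, averaged 1.33 ± 0.17 in dorsal nicotine-sired males against -0.02 ± 0.12 in dorsal saline-sired males, and 0.61 ± 0.23 in dorsal nicotine-sired females against 1.49 ± 0.29 in dorsal saline-sired females (SD, n = 3). In the ventral region it averaged 1.54 ± 0.38 in nicotine-sired males against 0.46 ± 0.13 in saline-sired males, and 0.99 ± 0.08 in nicotine-sired females against 2.03 ± 0.21 in saline-sired females. The nicotine-sired and the saline-sired libraries did not overlap in this ratio in any of the 4 pairs. This follows from Dbp and Arntl each separating these libraries in opposite directions, and is not a further result.

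**Figure D3:**
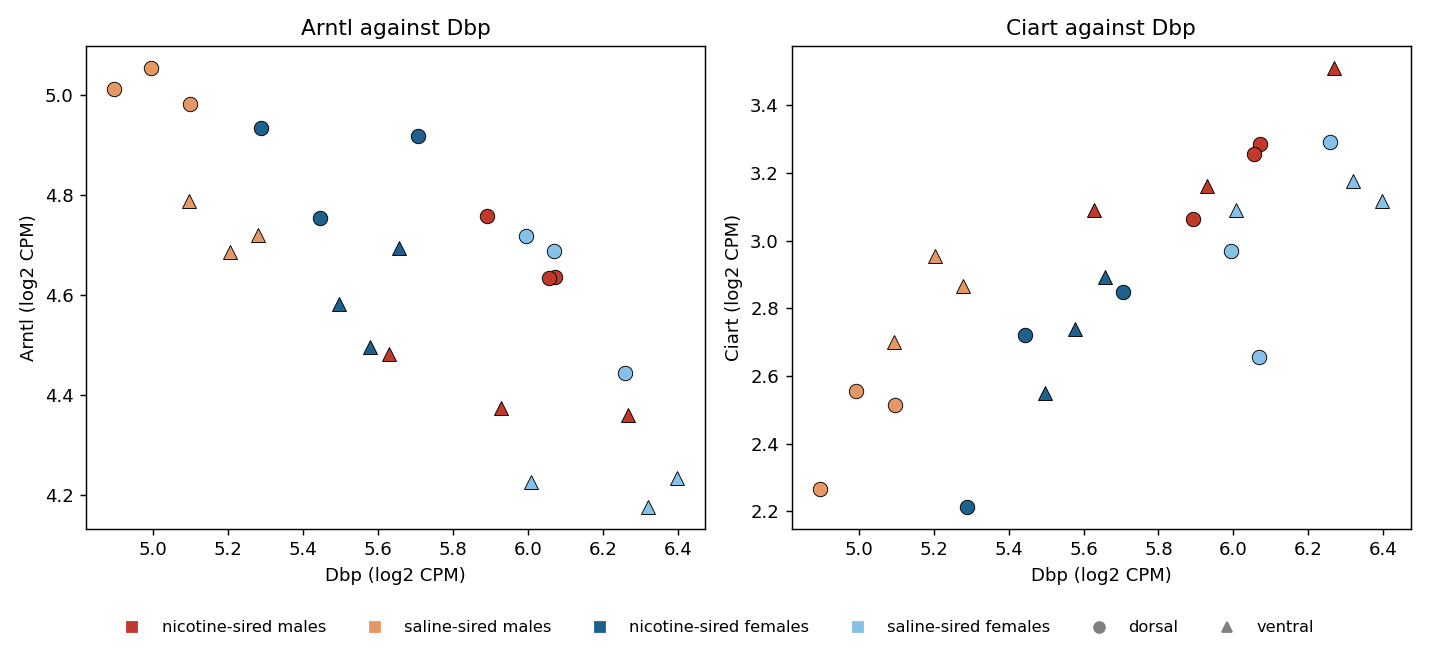
Arntl (left, y axis) and Ciart (right, y axis) against Dbp (x axes), all in log2 CPM, in 24 libraries; colours are groups, circles dorsal and triangles ventral. Arntl is lower and Ciart higher where Dbp is higher, with r of -0.915 and 0.848 in the dorsal region, and each animal's ventral library lies below its dorsal one for Arntl.

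Among 12822 protein-coding genes ranked by the weaker of the dorsal and the ventral r with Dbp, Arntl was the third most opposite, behind Papola and Kat7. Seen from Arntl, Dbp was the most opposite gene of all those ranked. The genes most like Dbp were Haghl (r of 0.929 dorsal and 0.985 ventral), Fabp5 (0.926 and 0.928), Fibp (0.922 and 0.953) and Cirbp (0.927 and 0.916), a cold-induced RNA-binding protein gene. The genes most like Arntl were Papola (0.882 and 0.933), Azi2 (0.876 and 0.872) and Phtf1 (0.860 and 0.875), and Hspa8, a heat shock protein gene, was among the 8 most alike (0.848 and 0.866). Of the other members, Ciart had rank 153 and Nr1d1 rank 564 among the genes most like Dbp. Nr1d2 (0.279 and 0.392), Per1 (0.122 and 0.0298) and Tef (0.304 dorsal and -0.058 ventral) were less like Dbp. Per2, Per3 and Clock had a negative r with Dbp in both regions. Each r is over 12 libraries that share 4 groups.

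The same relations were then tested within groups. After the mean of each group was subtracted, the correlation of each of the 45 member pairs was tested over the 12 libraries of a region with an exact two-sided permutation test within groups. There were 1296 arrangements, so the smallest p possible was 0.0007716. None of the 45 pairs passed after Benjamini-Hochberg adjustment in either region, with 4 dorsal and 5 ventral pairs at an unadjusted p under 0.05. Dbp and Ciart had an r of 0.81 in the dorsal region (exact permutation p = 0.027, adjusted p = 0.498; rho 0.81, p = 0.0147, adjusted p = 0.417). In the ventral region their r was 0.76 (exact permutation p = 0.0054, adjusted p = 0.174; rho 0.78, p = 0.0116, adjusted p = 0.295). Without the 2 libraries farthest from the median of Dbp, r was 0.70 in the dorsal and 0.52 in the ventral region. Dbp and Arntl had an r of -0.48 in the dorsal region (exact permutation p = 0.219, adjusted p = 0.557; rho -0.61, p = 0.0679, adjusted p = 0.464) and -0.36 in the ventral region (exact permutation p = 0.307, adjusted p = 0.701; rho -0.29, p = 0.396, adjusted p = 0.768). Without the 2 farthest libraries the dorsal r was stronger, at -0.73, and the ventral r was -0.0015. The pair passed the test in neither region. At this number of animals, an opposite course among animals of 1 group can be neither shown nor excluded. Arntl and Clock had an r of 0.79 in the dorsal region (exact permutation p = 0.0332, adjusted p = 0.498; rho 0.76, p = 0.0363, adjusted p = 0.417), and 0.62 without the 2 farthest libraries. Dbp and Clock had an r of -0.87 in the ventral region (exact permutation p = 0.0154, adjusted p = 0.174; rho -0.80, p = 0.0185, adjusted p = 0.295), and -0.65 without the 2 farthest. Positive pairs numbered 32 of 45 in the dorsal and 27 of 45 in the ventral region.

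**Figure D4:**
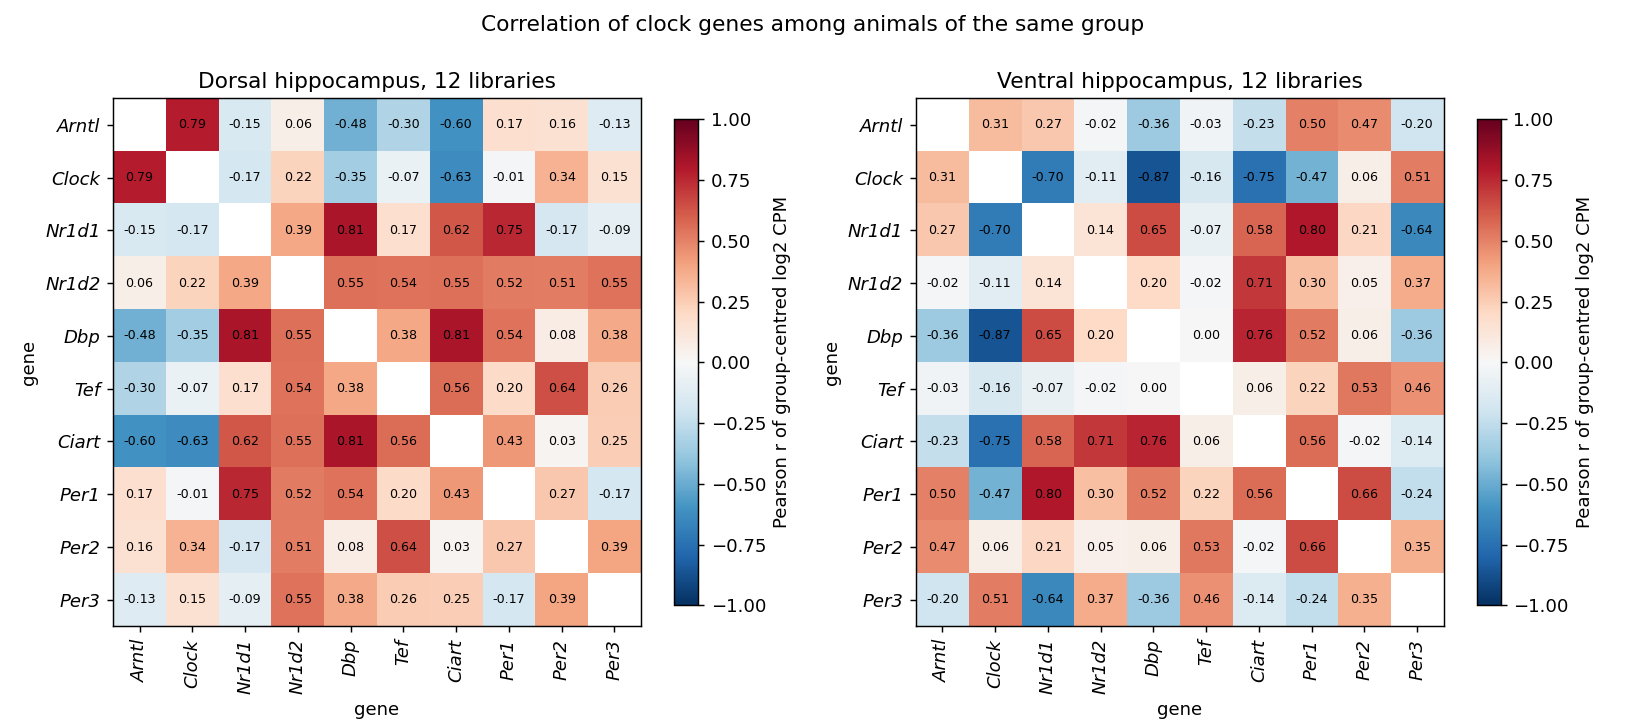
Pearson r (colour and printed value) of every pair of clock genes after subtraction of group means, over 12 dorsal (left) and 12 ventral (right) libraries; both axes list the genes. Dbp and Ciart stand at 0.81 and 0.76, and no pair passed the adjusted threshold.

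An animal's dorsal and ventral levels were also compared. With group means removed, all 10 members had a positive r between the dorsal and the ventral library of an animal, from 0.39 for Arntl to 0.83 for Tef. The share of all genes with a positive r was not counted. Over genes, the 2 deviations of an animal from its group means also had a median r of 0.15. None of the 10 members passed the exact permutation test after adjustment. The lowest adjusted p was 0.0617, shared by Dbp (r = 0.64, exact permutation p = 0.0131; rho 0.77, p = 0.0116), Per1 (r = 0.75, exact permutation p = 0.0177), Per2 (r = 0.78, exact permutation p = 0.0239) and Tef (r = 0.83, exact permutation p = 0.0247). Without the 2 animals farthest from the median, r was 0.74 for Dbp, 0.49 for Per1, 0.59 for Per2 and 0.52 for Tef.

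The ventral and the dorsal hippocampus differed in the level of several members. In the fit of all 24 libraries, Arntl was lower in the ventral region, with a log2 fold change of -0.31 ± 0.04 (edgeR adjusted p = 2.31e-06), as were Per3 (-0.24 ± 0.05, adjusted p = 0.00126) and Per2 (-0.19 ± 0.05, adjusted p = 0.00488). Tef was higher there (0.15 ± 0.04, adjusted p = 0.0104). These 4 of 10 members stood against 29.2% of all 19849 genes tested, so the share of members is near that of all genes. Animal by animal, Arntl was lower in the ventral library of 12 of 12 animals, by between -0.51 and -0.21 on the log2 scale, and Per2 in 12 of 12, by between -0.38 and -0.07. Per3 was lower in 11 of 12 animals and Tef higher in 11 of 12. Dbp had a median difference of 0.14, above 0 in 9 of 12 animals, and its log2 fold change of 0.10 ± 0.07 was not called (edgeR adjusted p = 0.299). The markers of oligodendrocytes also differed by region, with sums between 2669 and 3888 CPM in the ventral and between 3916 and 7089 CPM in the dorsal libraries, and their part in the result was not tested.

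**Figure D5:**
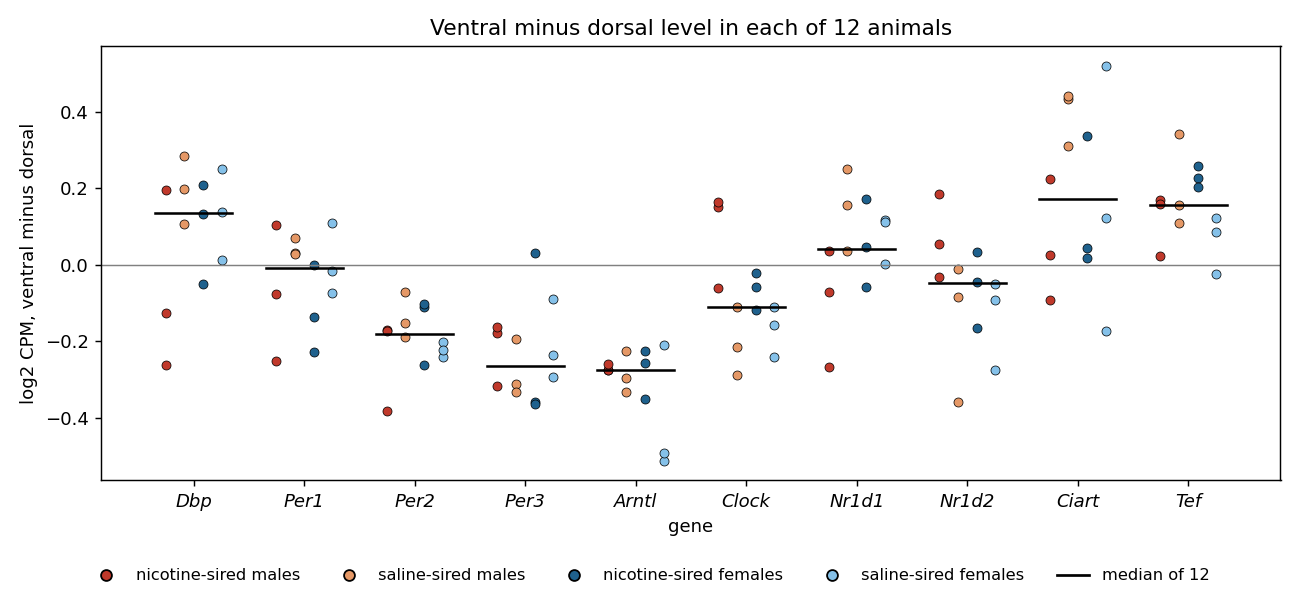
Ventral minus dorsal log2 CPM (y axis) of each clock gene (x axis) in each of 12 animals, coloured by group; bars are medians. Arntl and Per2 lie below 0 in 12 of 12 animals, and Tef above 0 in 11 of 12.

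Within saline-sired animals, Arntl (-0.35 ± 0.05, adjusted p = 3.30e-04), Per3 (-0.24 ± 0.07, adjusted p = 0.0276) and Clock (-0.19 ± 0.06, adjusted p = 0.0302) were lower in the ventral region, 3 of 10 members against 14.5% of all genes by edgeR. With the animal as a block, 7 of 10 were called, and the share of all genes called was then 22.3%. Those added were Per2 (-0.18 ± 0.04, adjusted p = 0.00744), Tef (0.13 ± 0.04, adjusted p = 0.0282), Ciart (0.28 ± 0.09, adjusted p = 0.0316) and Dbp (0.17 ± 0.06, adjusted p = 0.0485). Over all groups the block added Ciart (0.18 ± 0.06, adjusted p = 0.0278) and Clock (-0.09 ± 0.03, adjusted p = 0.0265), and with it 35.5% of all genes were called. Within nicotine-sired animals, Arntl (-0.28 ± 0.05, adjusted p = 8.65e-04), Per3 (-0.23 ± 0.07, adjusted p = 0.0306) and Per2 (-0.20 ± 0.07, adjusted p = 0.0495) were lower in the ventral region, 3 of 10 members against 16.9% of all genes by edgeR. Leaving out 1 animal at a time ended the calls of Per3 in 4 and Clock in 5 of 12 refits in saline-sired animals, and of Per3 in 5 and Per2 in 8 of 12 refits in nicotine-sired animals. Those of Arntl held in all of them. The test of whether the regional difference itself depended on sire treatment called 0 of 10 members by edgeR and by DESeq2, and 0% of all genes by either tool. At an unadjusted p under 0.05 there was 1 member, against 4.76% of all genes.

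Of 20 other genes of the clock pathway, all passed the filter on low counts. Dorsally, edgeR called 0 of 20 in each of the 6 comparisons of sire treatment and sex, against at most 2.24% of all genes. An unadjusted p under 0.05 was reached by 9 of 20 in the difference between the sexes, against 3859 of all 19130 genes. In the other 5 comparisons it was reached by between 1 and 4 of 20, against between 1844 and 3585 of 19130 genes. DESeq2 called 1, Cry1, in the difference between the sexes, against 1251 of 18955 genes, and 0 in the other 5. In the ventral region Nfil3, which encodes a repressor that competes with DBP and TEF for the D-box, fell by 0.50 ± 0.09 in nicotine-sired males relative to saline-sired males (adjusted p = 0.00581). Its difference of treatment effect, females minus males, was 0.61 ± 0.13 (adjusted p = 0.0355), and among saline-sired animals it was lower in females than in males (-0.55 ± 0.09, adjusted p = 0.00521). EdgeR called no other gene of the 20 in these 3 comparisons, against 3.21%, 1.07% and 2.31% of all genes. DESeq2 called Npas2 as well as Nfil3 in the ventral difference between the sexes, against 530 of 19008 genes. It also called both between ventral saline-sired females and males, against 859 of 17144 genes. Between regions, 2 of 20 were higher and 8 lower in the ventral hippocampus, against 29.2% of all genes called in either direction. Npas2, a paralogue of Clock, was higher (0.60 ± 0.10, adjusted p = 2.44e-04). Among those lower were Bhlhe40, an E-box repressor (-0.33 ± 0.05, adjusted p = 3.37e-05), Usp2, a deubiquitinase gene under clock control (-0.32 ± 0.05, adjusted p = 3.97e-05), and Cry1, a partner of the PER proteins (-0.18 ± 0.07, adjusted p = 0.0451).

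Genes outside the clock moved between the same groups, and their part in the member values was not tested. Of 8 temperature-responsive genes, edgeR called all in males, against 1.78% of all genes dorsally and 3.21% ventrally. In both regions 2 were higher and 6 lower in nicotine-sired males. Those higher were Rbm3 (1.07 ± 0.09 dorsal, edgeR adjusted p = 2.71e-04) and Cirbp (0.99 ± 0.10, adjusted p = 3.88e-04). In the difference between the sexes, edgeR called 6 of the 8 dorsally and 7 ventrally, against 2.24% and 1.07% of all genes. Between saline-sired females and males it called 7 dorsally and 8 ventrally, against 1.91% and 2.31%. Some were also called where edgeR called 0 of the clock members. In females edgeR called 1 of the 8 in each region, against 0.0314% and 0.0312%. Between nicotine-sired females and males it called 2 in each region, against 0.068% and 0.0832%. Over both sexes it called 1 dorsally and 3 ventrally, against 0.0784% and 1.75%. Of 8 glucocorticoid targets, 4 were lower in nicotine-sired males in each region, among them Sgk1 (-1.13 ± 0.12 dorsal, adjusted p = 9.24e-04) and Tsc22d3 (-0.93 ± 0.12 dorsal, adjusted p = 0.00196). Between saline-sired females and males, 5 of these 8 were lower in females in each region. In the difference between the sexes edgeR called 3 dorsally and 1 ventrally. Over both sexes it called 2 dorsally and 5 ventrally, all lower. In females it called 0 dorsally and 1 ventrally, and likewise between nicotine-sired females and males. These counts of glucocorticoid targets stand against the same shares of all genes as above. Of 10 activity-dependent genes, edgeR called 1 in dorsal males, Junb (0.80 ± 0.14, adjusted p = 0.0146), against 1.78% of all genes. In ventral males edgeR called 0 of the 10, against 3.21% of all genes. An unadjusted p under 0.05 was reached there by 4, against 15.8%. DESeq2 called 1 in ventral males, against 3.92% of the genes to which it gave an adjusted p.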

How the data were processed

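The authors deposited raw read counts for 51912 genes with 1 column per library, per the file headers. Libraries were made from total RNA with a stranded mRNA kit and read as 150 bp single ends over 3 lanes, per the labels' protocols. Without saying what each was used for, the submitters' processing notes list GRCm38, mm10, Cuffdiff 2.2.1.3, Cufflinks and TopHat2 2.1.0. No source used here gives the counting tool, its strand setting or its annotation. GENCODE M21 (GRCm38) held 51633 of the identifiers and not the other 279.

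Tests of the counts ran in R 4.3.3 with edgeR 4.0.16 and limma 3.58.1: TMM normalization, filterByExpr by group, the robust two-sided quasi-likelihood test and Benjamini-Hochberg adjustment over all genes tested, at 0.05. Standard errors were the fold change over the root of F. Regions were fitted apart with 4 group means each, and compared in 1 fit of 24 libraries. EdgeR estimated the biological variation between animals (common coefficient) at 0.16 for dorsal, 0.118 for ventral and 0.14 for all libraries. CPM used TMM-scaled library sizes, RPKM the merged exon length, and log2 CPM a prior count of 2. Correlations used exact permutations within groups in Python 3.11.15. The procedures were tested on simulated data.

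The antisense percentage used 625 noncoding genes opposite 574 coding genes with a mean of at least 50 CPM. Genes ranked for likeness had a mean of at least 1 CPM in both regions. The dorsal and ventral libraries of 1 title prefix were taken as 1 animal, which pairs them. Over genes, the 2 deviations of an animal from its group means had r between -0.08 and 0.53, median 0.15, and 9 of 12 exceeded 0.1. The main test of regions had no block, and the animal block was an alternative.

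The members and lists were chosen with earlier results of these data known. All 10 members are named, with list genes past the threshold or with the 3 smallest p, and the 8 genes most like or opposite Dbp and Arntl. Alternatives were DESeq2 1.42.0 size factors and its Wald test, no filter, blocks, a spread shared by all libraries, leaving out each animal, and, chosen after seeing the data, choroid plexus level and antisense percentage as covariates.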

Additional observations from a re-analysis of the deposited data

Results flagged for a closer look

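For 3 clock genes the effect of sire treatment differed between the sexes in both regions, by the edgeR test of the difference itself (log2 fold change of nicotine-sired over saline-sired offspring, females minus males). Dbp had -1.621 in the dorsal and -1.447 in the ventral hippocampus. Arntl, whose protein activates Dbp, had the opposite sign, 0.6 in the dorsal and 0.707 in the ventral hippocampus. Ciart, a repressor of the ARNTL and CLOCK complex, had -1.125 in the dorsal and -0.824 in the ventral hippocampus. With the antisense percentage as a covariate, the dorsal call of Ciart and all 3 ventral calls were lost, and with choroid plexus level those of Ciart in both regions. Under the antisense covariate 1 of all 19224 genes was called ventrally, against 205 without it. Leaving out 1 animal ended the call of Ciart in 10 of 12 refits in each region, and that of dorsal Arntl in 7 of 12. Ciart also lost its call with the title letter as a block in both regions, and ventrally with 1 spread for all 24 libraries. The dorsal and the ventral libraries come from the same 12 animals, so the regions are not independent repeats. The hour of dissection is not given in the labels used here, and the title number cannot be told apart from the groups.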

How the results depend on the processing

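No member call changed sign under any alternative run. Numbers are members called of 10 by edgeR, unless another tool is named. Brackets give the calls over all genes tested, or for DESeq2 over genes given an adjusted p. In dorsal males 1 member was called (341 of 19130 genes), and 2 with DESeq2 size factors (325 of 19130). Without the filter on low counts it was 3 (346 of 31995) and by DESeq2 4 (877 of 17096). With 1 spread for all 24 libraries it was 4 (647 of 19849), and with choroid plexus level as a covariate 3 (452 of 19130). In dorsal females 0 were called (6 of 19130), and 1 without the filter (14 of 31995). DESeq2 called 1 (256 of 17717), and the spread of all 24 libraries gave 1 (89 of 19849). In ventral males 2 were called (617 of 19224) and 4 by DESeq2 (892 of 22738). With the antisense percentage as a covariate 0 were called (1 of 19224). In ventral females 0 were called (6 of 19224), and 1 without the filter (99 of 32097). DESeq2 called 2 (276 of 19628). With 1 spread for all 24 libraries 2 were called (19 of 19849), and 1 with choroid plexus level (95 of 19224). The ventral difference between the sexes went to 0 of its 3 calls with the antisense percentage (from 205 to 1 of 19224). Between nicotine-sired females and males 0 were called in the dorsal (13 of 19130) and the ventral region (16 of 19224). In the dorsal region 1 was called without the filter (28 of 31995) and 1 by DESeq2 (91 of 15859). DESeq2 called 1 in the ventral region (161 of 20249). Between dorsal saline-sired females and males 2 were called (366 of 19130). It was 1 with the antisense percentage (170 of 19130) and 1 with the title letter as a replicate block (196 of 19130). The labels do not say whether a letter pairs animals of different groups. Same-letter libraries of different groups correlated with a median r of 0.0 over 36 pairs, 5 of them over 0.1. The animal block gave 7 calls between regions in saline-sired animals, against 3 without it, while the share of all genes called was 22.3% with it and 14.5% without. Without centring on group means, 8 dorsal pairs, 1 ventral pair and 8 members between regions passed the permutation test, against 0 each, but those counts treat libraries of different groups as exchangeable and so restate the differences between groups. Leaving out 1 animal at a time gave between 1 and 4 calls in dorsal males, 0 and 1 in dorsal females, 1 and 4 for the dorsal and 2 and 3 for the ventral difference between the sexes, 1 and 2 between dorsal saline-sired females and males, 0 and 1 between dorsal nicotine-sired ones, 1 and 2 in ventral males, 0 and 2 in ventral females, 1 and 3 between regions in saline-sired and 1 and 4 in nicotine-sired animals, and 0 and 4 members correlated between regions. Calls over all genes also moved in these refits. In dorsal males they were 624 of 19502 without nicotine-sired female A and 87 of 19522 without nicotine-sired male A. In the refits without nicotine-sired females A and C, in that order, dorsal females had 8 of 19502 and 0 of 19526. The difference between the sexes had 837 and 92 dorsally, and 227 of 19584 and 119 of 19617 ventrally. Dorsal females against males had 731 and 268 when saline-sired and 17 and 9 when nicotine-sired. Ventral males had 667 and 561, and ventral females 114 and 4. Regions had 3403 of 20120 and 2594 of 20194 in saline-sired and 3576 and 2230 in nicotine-sired animals. The cause of these changes was not tested. Of the 23 single calls, 23 held under DESeq2 size factors, 23 under the DESeq2 test and 15 with the antisense percentage.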
